A study of Brachypodium distachyon with 4 samples.

Results

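The 6 genes described here are widely used as internal standards for expression measurements in the grass Brachypodium distachyon, and they were chosen by locus from the 35125 identifiers of a leaf count table. They are the polyubiquitin genes UBI10 (BRADI_1g32860v3) and UBI4 (BRADI_3g04730v3), the ubiquitin-conjugating enzyme gene UBC18 (BRADI_4g00660v3), GAPDH (BRADI_3g14120v3), ACT3 (BRADI_4g41850v3) and SAMDC (BRADI_5g14640v3). All 6 were in the table and passed the filter on low counts. Messenger RNA came from leaves of the wild-type line Bd21-3 and of the mutant jmj1-1, which the labels place in the Bd21-3 background, with 2 libraries of each. Both genotypes grew under 20 h of light and 4 h of darkness per day, and leaves were taken on day 17 at the stage of leaf 4, at zeitgeber time 10 h. The labels name 1 mutant allele without its lesion or locus, so the transcript of the mutated gene could not serve as a check of the genotypes here. The files do not pair identifiers with names. The names of the 6 members came with their choice by locus, those of the example genes below follow published locus assignments, and none could be checked here. The leaf label was not checked against marker genes for the same reason.

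Reference genes serve as the denominator when a transcript is quantified by reverse-transcription PCR, and the method takes their level per unit of RNA to be equal in the samples compared. Polyubiquitin genes encode head-to-tail ubiquitin repeats, the protein tag for degradation, and UBC18 belongs to the enzymes that hand ubiquitin on to targets. GAPDH is an enzyme of glycolysis, ACT3 encodes actin of the cytoskeleton, and SAMDC encodes S-adenosylmethionine decarboxylase, an enzyme of polyamine synthesis. The name JMJ refers to the JmjC domain, found in enzymes that remove methyl groups from histones. The question was how far the level of each standard, and the ratio of each pair, differed between the genotypes.

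The libraries held between 13825916 and 16520046 counted reads. The labels do not say that replicate libraries stem from different plants, and all p-values rest on the spread between them, which could be technical. Levels are given as CPM, the usual per-library scaling of counts, with library sizes set by TMM, a method that assumes that most genes do not change. No transcript length is in the files used here, so the levels of different genes were not ranked against each other. In leaf RNA, fewer cells of a type and less RNA per cell cannot be told apart.

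Both polyubiquitin genes rose in jmj1-1. UBI10 was at 621.4 and 666.4 CPM in the Bd21-3 libraries and at 783.4 and 754.2 CPM in the jmj1-1 libraries. The genotypes did not overlap, and the gap between them, 87.8 CPM, was wider than the distance between replicates of either genotype. The log2 change was 0.26 (SE 0.038, adjusted p = 3.83e-07 in edgeR's quasi-likelihood test), a level 19.4% higher. UBI4 was at 635.0 and 674.0 CPM in Bd21-3 and at 731.6 and 716.1 CPM in jmj1-1. Again both mutant libraries lay above both wild-type libraries, with a log2 change of 0.15 (SE 0.037, adjusted p = 0.0035). Polyubiquitin genes consist of near-identical repeats, and how reads that match several places were counted is not stated, so reads of UBI10, UBI4 and their relatives could have been split or shared. The call of UBI4 was lost without Bd21-3 replicate 1 (log2 change 0.10) and without jmj1-1 replicate 1 (0.13). Its adjusted p ran from 2.76e-07 to 0.74 across the alternatives. Both ends come from fits in which SAMDC or GAPDH set the library sizes, which test a ratio to that gene. With all libraries and scalings over all genes, edgeR's adjusted p ran from 2.21e-05 (library totals) to 0.11 (TMM factors squared).

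The third member of the ubiquitin pathway, UBC18, had far fewer reads and did not pass the test. Its counts were 567 and 495 reads in Bd21-3 and 510 and 434 reads in jmj1-1, or 35.03, 31.28, 31.27 and 30.72 CPM in that order. Bd21-3 replicate 1 stood above the other libraries, which lay close together. The log2 change was -0.10 (95% interval -0.25 to 0.06, adjusted p = 0.52), and it was -0.01 without Bd21-3 replicate 1 and -0.18 without Bd21-3 replicate 2. The replicates of Bd21-3 differed by 0.16 on the log2 scale, against a counting error of 0.089 for that difference.

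GAPDH rose by a small amount and ACT3 did not pass the test. GAPDH was at 979.3 and 1035.5 CPM in Bd21-3 and at 1095.7 and 1074.7 CPM in jmj1-1, a log2 change of 0.11 (SE 0.036, adjusted p = 0.032). Its genotypes were apart by 39.2 CPM, less than the distance between the Bd21-3 replicates. The call was lost without Bd21-3 replicate 1, jmj1-1 replicate 1 or jmj1-1 replicate 2 (log2 changes 0.07, 0.09 and 0.12). The adjusted p of GAPDH ran from 6.49e-06 to 0.72 across the alternatives. Both ends come from fits in which SAMDC or UBI4 set the library sizes. With all libraries and scalings over all genes, edgeR's adjusted p ran from 0.00032 (library totals) to 0.40 (TMM factors squared). ACT3 was at 656.4 and 661.8 CPM in Bd21-3 and at 651.7 and 629.1 CPM in jmj1-1. Its genotypes were separated by 4.67 CPM only. The log2 change was -0.04 (95% interval -0.11 to 0.03, adjusted p = 0.56), and with libraries scaled by their totals alone it turned to 0.01. The interval covers small changes in either direction and does not show that ACT3 was equal in both genotypes.

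SAMDC fell in jmj1-1, the only called member that was lower. It was at 1437.9 and 1498.6 CPM in Bd21-3 and at 1306.8 and 1253.0 CPM in jmj1-1. Both mutant libraries lay at least 131.1 CPM below the wild type, more than the distance between replicates. The log2 change was -0.20 (SE 0.035, adjusted p = 1.51e-05), and the level fell by 12.8%. SAMDC and UBI10 passed the test with each library left out. The log2 change of SAMDC then lay between -0.23 and -0.17, and that of UBI10 between 0.20 and 0.31. Such fits take the lone library of a genotype to vary as the other genotype does. In fits where 1 other member set the library sizes, SAMDC lost its call with UBC18 (edgeR adjusted p = 0.68). UBI10 lost its call with UBI4 and GAPDH (edgeR adjusted p = 0.21 and 0.067).

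**Figure D1:**
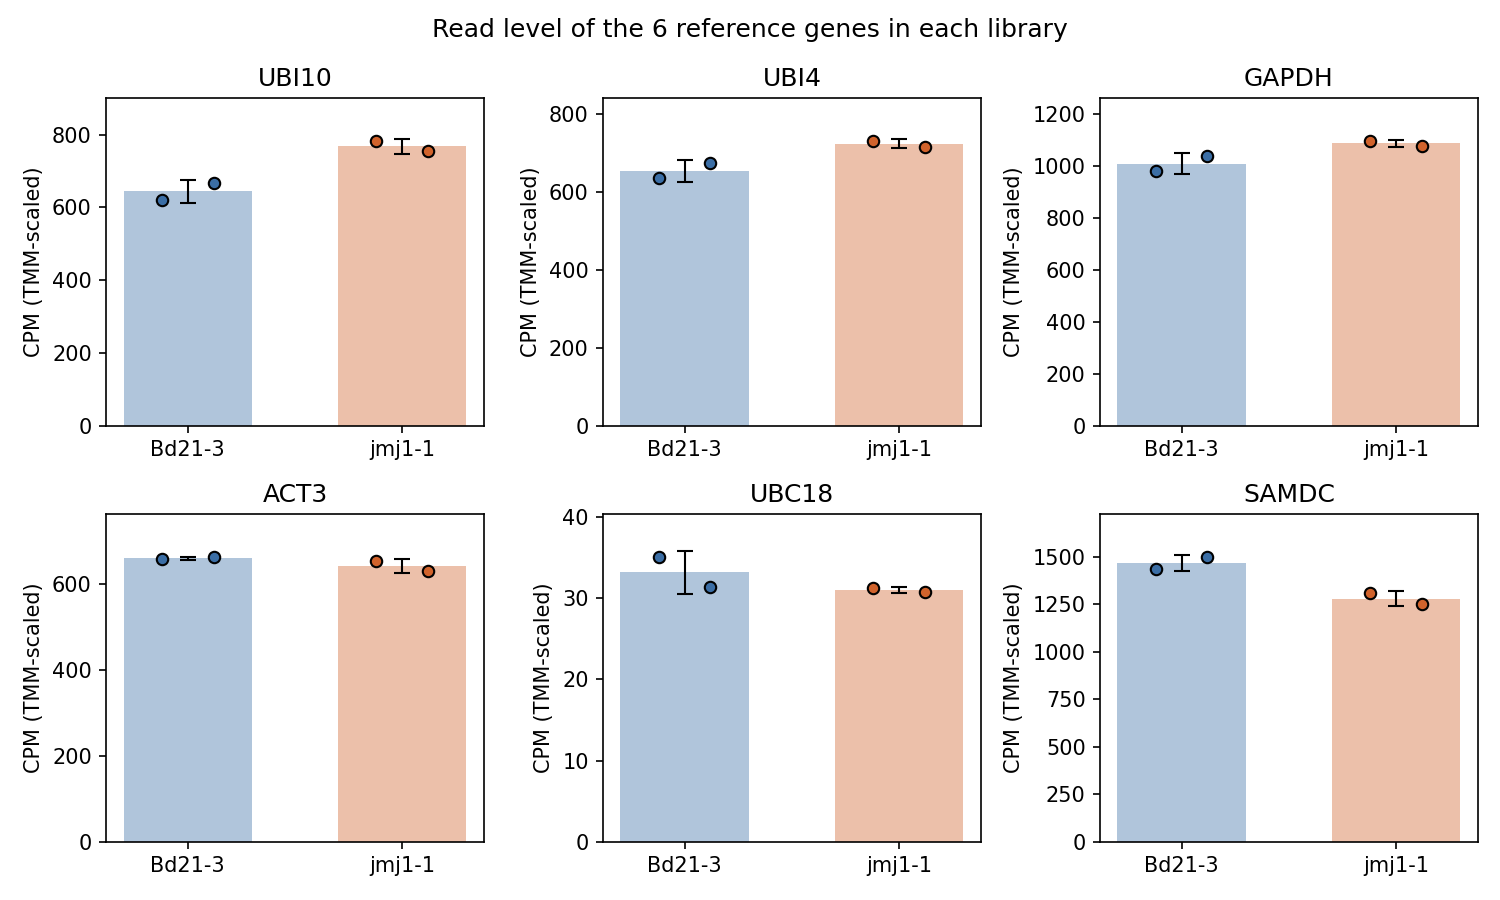
CPM after TMM scaling in each library (points), with the mean (bar) and SD (error bar) of the 2 libraries of Bd21-3 (blue) and of jmj1-1 (orange), 1 panel per gene and each axis from 0. UBI10 goes from a mean of 643.9 to 768.8 CPM and SAMDC from 1468.3 to 1279.9 CPM. ACT3 goes from 659.1 to 640.4 CPM and UBC18 from 33.2 to 31.0 CPM. The change of UBC18, -6.5%, is near the size of that of GAPDH, 7.7%, but has a larger SE (0.080 against 0.036).

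Of the 6 members, 3 rose, 1 fell and 2 missed the threshold. Across the 21456 tested genes 13.9% were called, 6.13% higher and 7.75% lower in jmj1-1 (1315 and 1663 genes). RLE scaling gave 1316 higher and 1655 lower, and upper-quartile scaling 1371 higher and 1571 lower. Library totals turned the balance, with 2043 higher and 1143 lower. TMM factors squared widened it, with 953 higher and 2433 lower. Without jmj1-1 replicate 1 or 2, 1791 or 1969 genes were called. DESeq2 called 3 members, UBI10, UBI4 and SAMDC, against 5.98% of the same genes. Calls are more frequent among genes with many reads: at a mean of 100 CPM or more, 40.0% of 1764 genes were called, and 4 of the 5 members at that level. The median absolute log2 change was 0.13 over the members, 0.14 over all tested genes and 0.10 over the genes at 100 CPM or more. By size, the absolute change of UBI10 was at percentile 86.5 of the genes at 100 CPM or more, that of SAMDC at 77.0, UBI4 at 64.7, GAPDH at 53.8 and ACT3 at 24.8. In all 6 members the CPM values of the genotypes did not overlap, for UBC18 by 0.0069 CPM, and this was so for 50.9% of all tested genes.

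**Figure D2:**
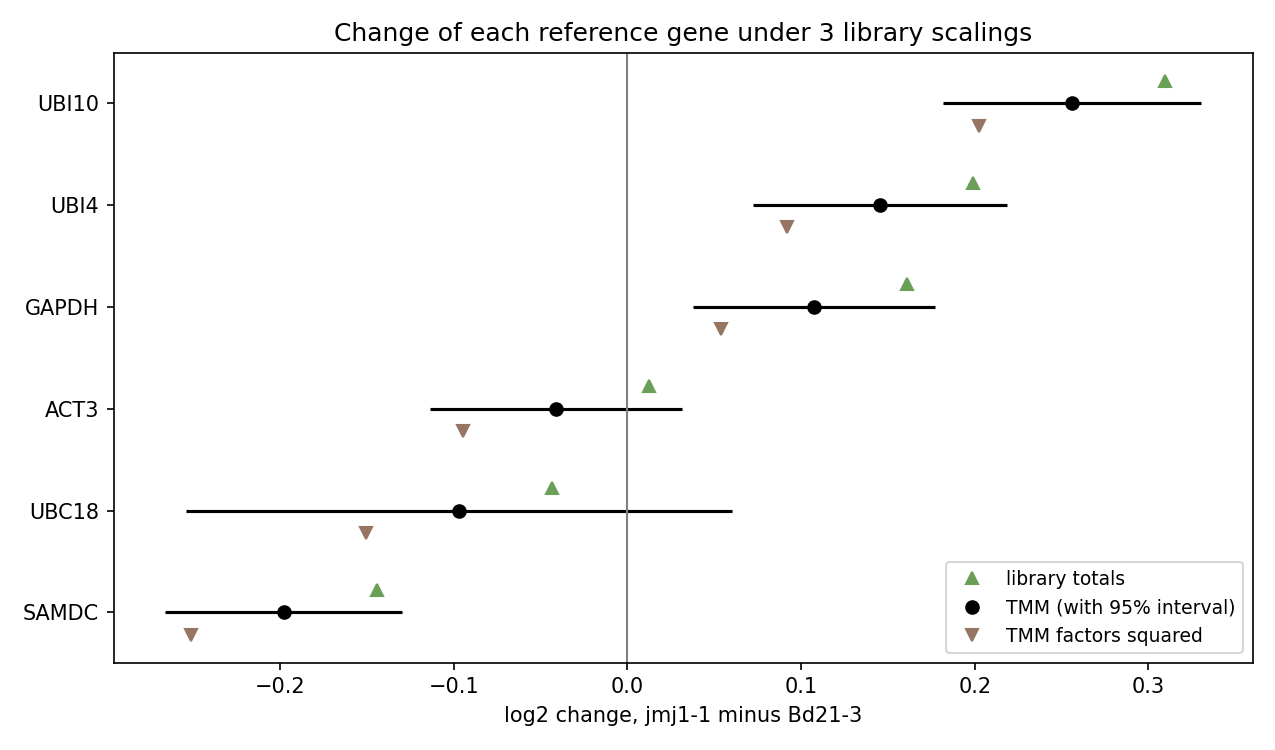
Log2 change of each gene (jmj1-1 minus Bd21-3) with TMM scaling and its 95% interval (black), with library totals alone (green) and with TMM factors squared (brown), which shifts the genotypes opposite to library totals. UBI10, UBI4 and GAPDH stay to the right of 0 and SAMDC and UBC18 to the left under these 3 scalings, whereas ACT3 changes side with library totals.

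Replicates of a genotype shared part of their deviation across members. In Bd21-3, replicate 2 was higher than replicate 1 by 0.06 for SAMDC, 0.08 for GAPDH, 0.09 for UBI4 and 0.10 for UBI10 on the log2 CPM scale, each more than its counting error of 0.013 to 0.020. ACT3 differed by 0.01, within its counting error, and UBC18 went the other way. In jmj1-1, replicate 2 was lower than replicate 1 for all 6, by 0.03 to 0.06, which for UBC18 is within counting error. Ratios of members in 1 library do not carry such a shared shift, and they do not depend on how libraries are scaled.

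The ratio of UBI10 to SAMDC changed most among the 15 pairs. It was 0.432 and 0.445 in Bd21-3 and 0.599 and 0.602 in jmj1-1, and the replicates lay far closer together than the genotypes. The mean log2 ratio differed by 0.45, a factor of 1.37, with a 95% interval of 0.42 to 0.49 from counting error alone. UBI4 to SAMDC went from 0.442 and 0.450 to 0.560 and 0.571, a factor of 1.27. GAPDH to SAMDC went from 0.681 and 0.691 to 0.838 and 0.858, a factor of 1.24. UBI10 to ACT3 was 0.947 and 1.01 in Bd21-3 and 1.20 in both jmj1-1 libraries, so ACT3 had more reads than UBI10 in Bd21-3 replicate 1 only.

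At the other end, UBI4 and GAPDH kept nearly the same ratio. It was 0.648 and 0.651 in Bd21-3 and 0.668 and 0.666 in jmj1-1, a difference of 0.04 on the log2 scale, with a 95% interval of 0.0029 to 0.073 from counting error. UBI10 to UBI4, the pair of polyubiquitin genes, went from 0.979 and 0.989 to 1.07 and 1.05, a difference of 0.11. The genotypes did not overlap in 13 of 15 pairs, which share 6 genes. Over all pairs of the 21391 tested genes with a read in every library this was so for 50.2%. Among pairs of genes at 100 CPM or more the share was 73.4%, against 10 of 10 pairs of the members at that level. The exceptions were UBC18 to SAMDC and ACT3 to UBC18, with differences of 0.10 and 0.05 and counting intervals of -0.03 to 0.23 and -0.07 to 0.19. Each pair was written in the direction that rose in jmj1-1, so all differences are positive by construction. The median absolute difference over the 15 pairs was 0.19, and the median SD within genotypes was 0.036. With 2 libraries against 2, a two-sided exact permutation test cannot go below p = 0.333, the value of each of these 13 pairs, so it cannot pass a threshold of 0.05 here.

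**Figure D3:**
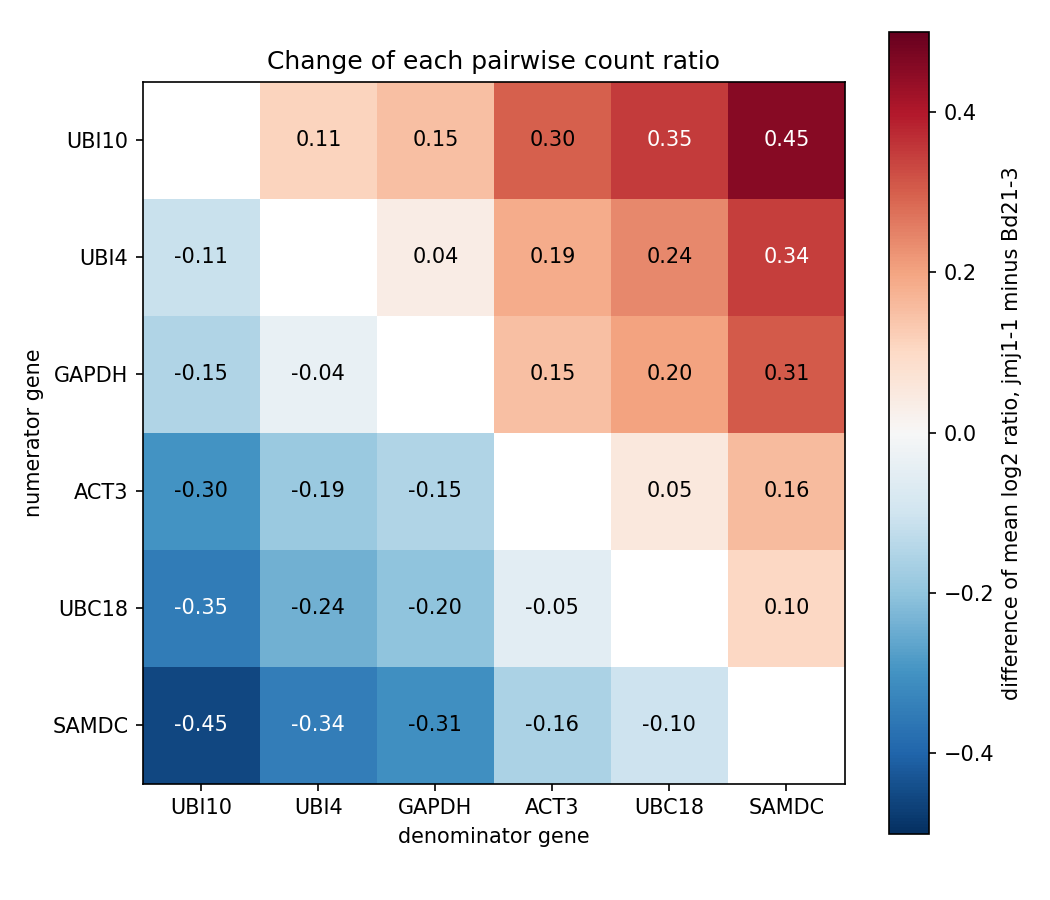
Difference between genotypes (jmj1-1 minus Bd21-3) of the mean log2 ratio of read counts, for each gene of a row over each gene of a column. Cells run from 0.45 for UBI10 over SAMDC to 0.04 for UBI4 over GAPDH above the diagonal, and the values below it are the same with the opposite sign.

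Each pair was also examined in fits over all genes in which 1 member set the library sizes in place of TMM. The SE in such a fit draws on the spread of all genes on that scale, not on the pair's ratio alone. It can exceed the spread of that ratio: for UBI10 to UBI4 the SD within genotypes was 0.014, against an SE of 0.063. A missing call is therefore no evidence that a ratio was equal in the genotypes. On the scale of SAMDC, 4 of the other 5 members were higher in jmj1-1, where 30.2% of all tested genes were called. On the scale of ACT3, UBI10, UBI4 and GAPDH were higher and SAMDC was lower, with 12.4% of all genes called. On the scale of UBI10, SAMDC, ACT3 and UBC18 were lower (40.0% of all genes called). On that of UBI4, SAMDC and ACT3 were lower (21.3%). SAMDC alone was called on the scale of GAPDH (16.9%), and UBI10 alone on that of UBC18 (6.17%).

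By these fits, 7 of 15 pairs were called whichever member of the pair set the scale. The share of other gene pairs called both ways was not computed. This count therefore has no background, and whether it is particular to the members is not known. The 7 pairs were SAMDC against UBI10, UBI4, GAPDH and ACT3, ACT3 against UBI10 and UBI4, and UBC18 against UBI10. GAPDH against ACT3 was called on the scale of ACT3 (log2 change 0.15, SE 0.042, adjusted p = 0.0100) and not on that of GAPDH (adjusted p = 0.065 in edgeR). The other 7 pairs were not called either way. Among these were the 3 pairs within UBI10, UBI4 and GAPDH, with log2 changes of 0.15 (SE 0.059) for UBI10 on GAPDH, 0.11 (SE 0.063) for UBI10 on UBI4 and 0.04 (SE 0.059) for UBI4 on GAPDH. The remaining 4 involve UBC18.

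The mean SD of a gene's log2 ratios to the other 5 members over the 4 libraries, the stability value M of the geNorm method, was lowest for GAPDH, ACT3 and UBI4, at 0.106, 0.110 and 0.114. It was 0.149 for UBC18, 0.164 for UBI10 and 0.168 for SAMDC. Within genotypes M was lower for 5 members. It lay between 0.051 and 0.064 in Bd21-3 and between 0.012 and 0.016 in jmj1-1, except for UBC18 at 0.163 in Bd21-3. Each SD within a genotype rests on 2 libraries, which can lie close together by chance. For UBC18 in jmj1-1, M was 0.014. Its replicates there differed by -0.025 in log2 CPM, well within the counting error of 0.094 for that difference. The order of the lower values rests on single libraries: without Bd21-3 replicate 1, M was 0.077 for GAPDH, 0.078 for UBC18, 0.085 for UBI4 and 0.086 for ACT3. M weighs members against each other, so a group of members that differ alike between genotypes is favoured. By the SD of its own log2 CPM over the 4 libraries, ACT3 was at percentile 13.7 of the 1764 genes at 100 CPM or more, GAPDH at 50.2, UBI4 at 63.7, SAMDC at 76.2 and UBI10 at 86.8.

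The number and direction of calls among leaf genes differed between the members used as the scale. With UBI10 as the scale, 8591 of 21455 genes were called, 454 higher and 8137 lower in jmj1-1, and the median log2 change of all genes was -0.25. With SAMDC it was 6469 genes, 6114 higher and 355 lower, and the median was 0.20. UBI4 and GAPDH gave 586 higher against 3986 lower and 651 higher against 2974 lower, with medians of -0.14 and -0.11. On the scale of ACT3 the split was closest to even, with 1580 higher and 1073 lower and a median of 0.04, against a median of 0.0033 with TMM.

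Leaving out 1 library also moved these numbers, by more than 1.5 times on each of the 6 scales except that of ACT3. On the scale of ACT3 each such fit called fewer genes than the 2653 with all libraries. The largest of these drops was only just within the limit of 1.5 times. Without jmj1-1 replicate 1 the scale of UBI10 gave 2232 calls, fewer than the 4280 of SAMDC, and UBI4 and GAPDH gave 1320 and 1124. Without jmj1-1 replicate 2 the calls were 4436 for UBI10, 2600 for SAMDC, 1888 for UBI4 and 1524 for GAPDH. Without Bd21-3 replicate 2 SAMDC gave 3709, and without Bd21-3 replicate 1 UBI10 gave 5799. The majority direction on a single-gene scale is largely built in, because it mirrors the change of that gene with TMM. The TMM changes of UBI10, UBI4, GAPDH, SAMDC and ACT3 kept their sign with each library left out. The direction on their scales therefore adds nothing about the other genes. With each library left out in turn, most calls were lower in jmj1-1 on the scales of UBI10, UBI4 and GAPDH, and most were higher on those of SAMDC and ACT3.

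On the scale of UBC18, 1048 genes were higher and 276 lower, with a median of 0.10. The coefficient of variation within genotypes that edgeR estimates over all genes was 7.15% on the scale of UBC18, 4.19% on that of ACT3 and 3.74% with TMM. Calls on the scale of UBC18, the fewest of the 6 members with all libraries, numbered 484 without jmj1-1 replicate 2 and 5605 without Bd21-3 replicate 2, then more than for ACT3, SAMDC and GAPDH. Without Bd21-3 replicate 1 they numbered 2364, with 1162 higher and 1202 lower. The geometric mean of the 6 members gave 2831 calls, 980 higher and 1851 lower (13.2%), of which 2643 were shared with TMM in direction. It was at 483.5 and 493.4 CPM in Bd21-3 and 505.7 and 491.3 CPM in jmj1-1, where the genotypes overlapped. Of the 2978 calls with TMM, 2388 were shared in direction on the scale of ACT3, 2314 on GAPDH, 2249 on UBI4, 2117 on UBI10, 1670 on SAMDC and 1263 on UBC18.

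**Figure D4:**
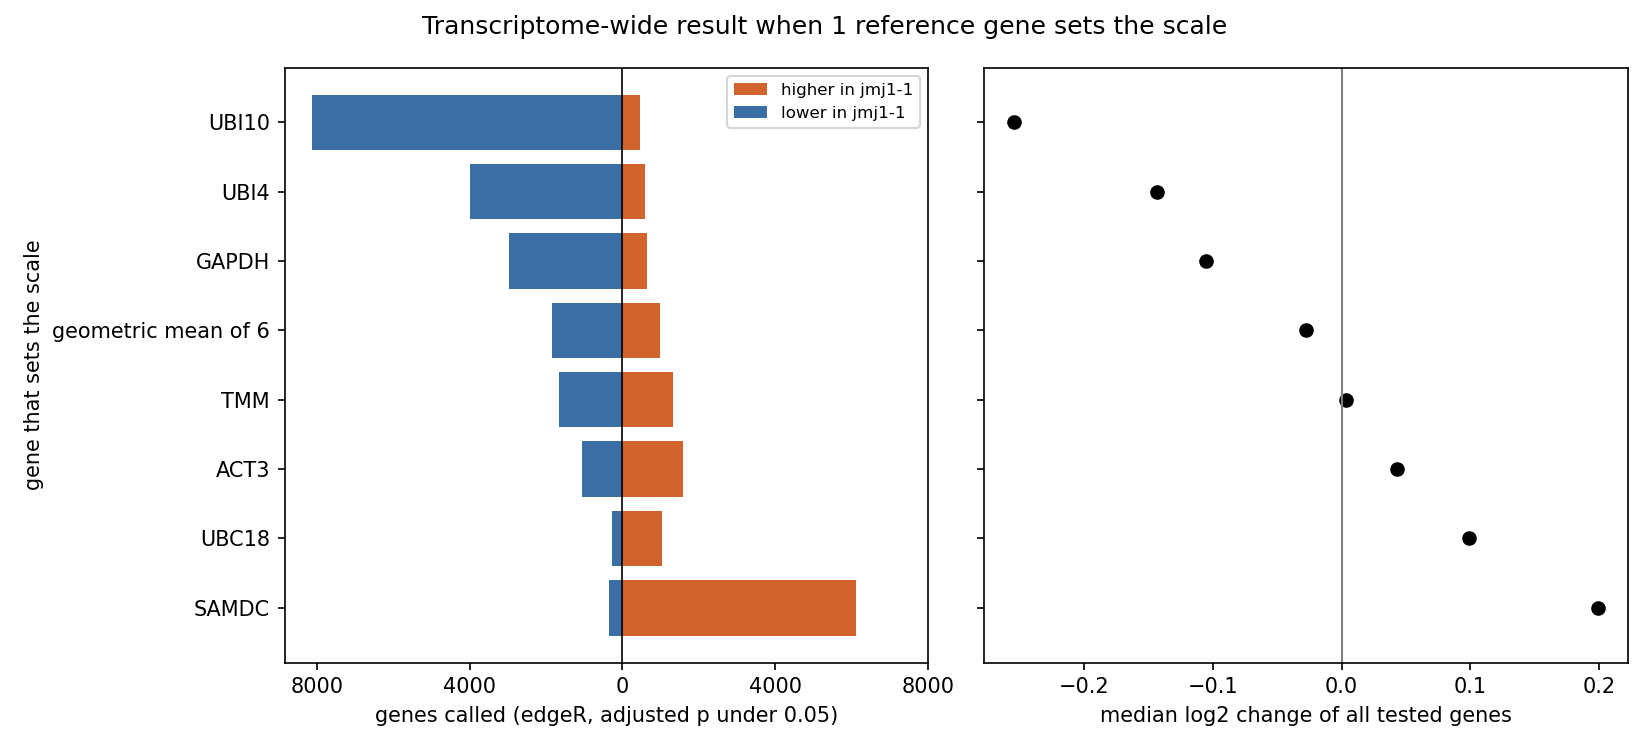
Left, number of genes called (edgeR, adjusted p under 0.05) as higher (orange, to the right of 0) or lower (blue, to the left) in jmj1-1 when the gene named on the vertical axis set the library sizes. Right, the median log2 change over the tested genes on the same scales, from -0.25 with UBI10 to 0.20 with SAMDC.

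A pair of clock genes shows what the denominator does to 1 transcript. They were picked with their small changes already known. GI (BRADI_2g05226v3), or GIGANTEA, which links the clock to flowering, was at 241.3 and 252.7 CPM in Bd21-3 and at 300.1 and 296.8 CPM in jmj1-1. With TMM its log2 change was 0.27 (SE 0.042). Against SAMDC it was 0.47 (SE 0.062, adjusted p = 2.01e-12 in edgeR), and against UBI10 it was 0.02 (SE 0.075, adjusted p = 0.87), where the genotypes overlapped. Against UBI4 it was 0.13 and did not pass the test either (adjusted p = 0.14), whereas it passed against GAPDH, ACT3, UBC18 and the geometric mean. LHY (BRADI_3g16515v3), a clock gene with a MYB domain that peaks at dawn, ranged from -0.64 (SE 0.076) against UBI10 to -0.18 (SE 0.060) against SAMDC. It kept its direction on each of these scales and missed the threshold on that of UBC18 only (-0.29, SE 0.10, adjusted p = 0.079).

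**Figure D5:**
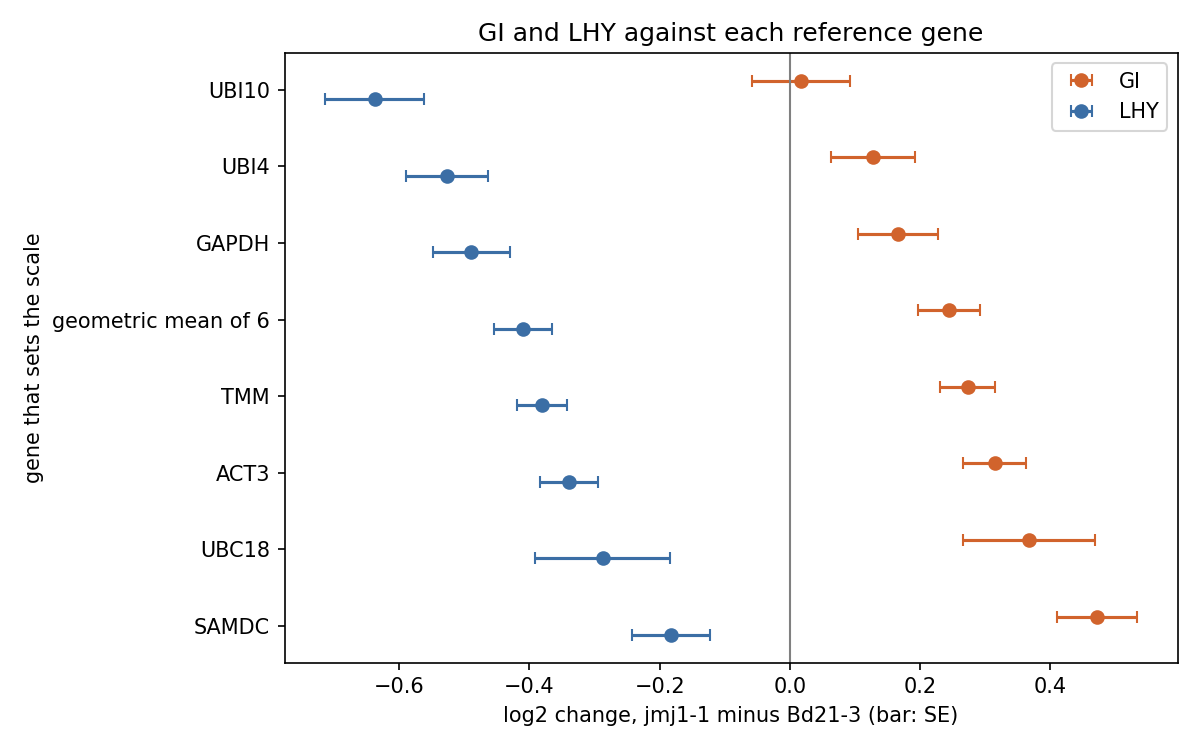
Log2 change of GI (orange) and LHY (blue) between genotypes, jmj1-1 minus Bd21-3, with its SE, on the scale of each reference gene, of TMM and of the geometric mean of the 6. GI runs from 0.02 on UBI10 to 0.47 on SAMDC, and LHY from -0.64 to -0.18 on the same scales.

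Patterns like those of the extreme members were found among the 1759 other genes at 100 CPM or more, by the Euclidean distance of centred log2 CPM over the 4 libraries. Nearest to UBI10 was BRADI_3g12497v3, at 123.5 and 131.0 CPM in Bd21-3 and 156.1 and 149.8 CPM in jmj1-1, a distance of 0.015 against a median of 0.31. Nearest to SAMDC was BRADI_1g60100v3, at 110.3 and 114.4 CPM in Bd21-3 and 99.8 and 95.4 CPM in jmj1-1, a distance of 0.0077 against a median of 0.20. With only 4 libraries, close matches are easily found among so many genes. Among the members, UBI4 was nearest to UBI10, at a distance of 0.11, with 63 genes nearer. ACT3 was nearest to SAMDC, at 0.16, with 634 genes nearer.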

How the data were processed

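The authors deposited whole-number read counts per gene, 1 column per library, per the file headers. Trimming, alignment and counting tools, per the submitters' processing notes, were cutadapt, HISAT2, SAMtools and featureCounts. Their versions, the genome build, the annotation, the strand setting and the handling of multiply matching reads are not given here. The members and example genes were chosen with earlier results of these data known. The test was run with edgeR 4.0.16 under R 4.3.3: filterByExpr (21456 genes kept), TMM, the quasi-likelihood F-test (edgeR 4 method), two-sided, Benjamini-Hochberg adjustment over all tested genes, threshold 0.05. All p-values adjusted in this way come from that test unless another is named. SEs are the absolute log2 change divided by the square root of F, and 95% intervals are 1.96 SE to each side. Counting intervals assume Poisson reads, summed over the 2 libraries of a genotype, and cover counting error only. For single-gene scales, library sizes were set proportional to that gene's reads and the gene was left out of the fit. Named genes were the 6 members, GI, LHY and the nearest pattern to UBI10 and to SAMDC. Alternatives used DESeq2 1.42.0, limma 3.58.1 (voom), other scalings and filters, a replicate block and each library left out. The RefSeq gene table (Brachypodium_distachyon_v3.0) matched 0 identifiers, so no sequence is shown. Replicates were no copies of each other (chi-square per degree of freedom 2.41 and 1.85).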

Additional observations from a re-analysis of the deposited data

How the results depend on the processing

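RLE and upper-quartile scaling, the CPM filter, limma-voom and the replicate block left the direction and call of all 6 members as they were. The replicate block gave 3141 calls, and libraries with the same number deviated from their group means with a correlation of -0.016; the labels give no pairing. Library totals gave 2043 higher genes and 1143 lower ones and turned ACT3 to 0.013. Without the expression filter there were 1788 calls (746 higher, 1042 lower) with 2 members called, and GAPDH (0.10) and UBI4 (0.14) lost their calls. DESeq2 gave 1283 calls (515 higher, 768 lower) and lost GAPDH (0.11), as did edgeR's likelihood ratio test (0.11). With TMM factors squared 2 members were called, and GAPDH (0.054) and UBI4 (0.092) were lost. The geometric mean of the 6 also left 2 called and lost GAPDH (0.08) and UBI4 (0.12).

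On single-gene scales the shift is built in. UBC18 gave 1324 calls, 276 lower, with 1 member called; SAMDC (-0.11), GAPDH (0.20) and UBI4 (0.24) lost their calls and ACT3 turned to 0.052. SAMDC gave 6469 calls, 6114 higher and 355 lower; UBC18 turned to 0.10 and ACT3 to 0.16. ACT3 gave 1073 lower genes. GAPDH gave 651 higher and 2974 lower genes with 1 member called, and UBI4 (0.038) and UBI10 (0.15) lost their calls. UBI4 gave 4572 calls, 586 higher and 3986 lower, with 2 members called; GAPDH turned to -0.038, UBI10 (0.11) was lost and ACT3 (-0.19) was called. UBI10 gave 8591 calls, 454 higher and 8137 lower; GAPDH turned to -0.15 and UBI4 to -0.11, while UBC18 (-0.36) and ACT3 (-0.30) were called. The cause was not tested for the filter, the tools and TMM factors squared.

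With 1 library left out the calls numbered 1791 to 2857, of which 749 to 1237 were higher and 1042 to 1620 lower, and 2 to 4 members were called. Such fits have fewer libraries and take the lone library of a genotype to vary as the other genotype does. Their calls therefore depend on how close the replicates of that other genotype lie, and can be fewer or more than with all libraries. Log2 changes ranged from -0.18 to -0.01 for UBC18, -0.23 to -0.17 for SAMDC, -0.07 to -0.01 for ACT3, 0.066 to 0.15 for GAPDH, 0.10 to 0.19 for UBI4 and 0.20 to 0.31 for UBI10. The largest change of a pair, UBI10 to SAMDC, lay between 0.43 and 0.48, and UBC18 to SAMDC and ACT3 to UBC18 changed sign, from -0.0081 to 0.21 and from -0.03 to 0.14. M ranged from 0.078 to 0.165 for UBC18, 0.152 to 0.177 for SAMDC, 0.086 to 0.119 for ACT3, 0.077 to 0.119 for GAPDH, 0.085 to 0.128 for UBI4 and 0.133 to 0.183 for UBI10. Single-gene scales with 1 library left out, added after the data were seen, gave 484 to 5605 calls for UBC18, 2600 to 5766 for SAMDC, 1771 to 2046 for ACT3, 1124 to 4939 for GAPDH, 1320 to 6139 for UBI4 and 2232 to 9618 for UBI10. The fit on UBC18 without jmj1-1 replicate 1 could not be made. At 434 to 567 reads per library, counting error alone was 4.20% to 4.80% for UBC18, and at most 1.06% for the other members.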
